A study of Mus musculus with 6 samples.

Results

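Among the genes of distal mouse chromosome 12, the stretch that also carries the immunoglobulin heavy chain locus, *Tmem121*, *Crip1*, *Tedc1*, *Ifi27*, *Ifi27l2a*, *Rapgef5* and *Ccdc88c* are described here across cell classes and genotypes. They were taken by symbol from the 31053 features of the count matrices, and all 7 were found. They were picked after levels in these same libraries had been seen, so their differences between genotypes are given as descriptions and carry no test. The libraries are droplet-based single cell RNA-seq of spleen cells sorted from mice immunized with sheep red blood cells, labelled as germinal center (GC) B-cells. There were 3 libraries from *Smc3* wt/wt mice (genotype label Cgamma1-Cre WT Control) and 3 from *Smc3* wt/- mice (Cgamma1-Cre Smc3 +/-), in which 1 allele of the cohesin ATPase subunit *Smc3* is deleted in cells with Cre activity. Both groups carry *Cγ1*-Cre, a Cre gene placed in the *Ighg1* locus and switched on in B-cells around GC entry. The Cre allele therefore sits on the same chromosome stretch as the genes described here in both groups, and the number of Cre alleles in each mouse, the ages of the mice and whether a library pooled mice are not given in the sources used here. The study's methods name more *Smc3* wt/wt mice than there are *Smc3* wt/wt libraries. The targeted *Smc3* exon is exon 4, which a 3′ tag does not read. Whether transcripts of the deleted allele are still counted was not tested, so no label is judged by the level of *Smc3*. In centroblast-like cells that level was 148, 167 and 150.4 CPM (UMIs of a gene scaled to a fixed library total) in *Smc3* wt/wt. It was 142, 132 and 185 CPM in *Smc3* wt/-, which overlap.

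The 6 libraries held 22939 cell barcodes and between 5223325 and 35354257 unique molecular identifiers (UMIs, each standing for 1 captured transcript), and 20809 cells were kept. Cells were clustered, and clusters were called by their markers centroblast-like (CB-like), S-phase GC B-like, centrocyte-like (CC-like), recycling-like, naive or memory B-like, plasma-lineage, T cell-like and myeloid-like, so the label GC B-cells covered only a share of what was sequenced. A further large cluster of 3718 cells had haemoglobin genes as its leading genes and was left unnamed. That lead came mainly from *Smc3* wt/- replicate 2, whose 100 cells in it had a summed erythroid marker level of 126146 CPM, against 111 to 3162 CPM in the other libraries, and the name haemoglobin-led cluster is used here only to tell it apart. Replicate 2 of *Smc3* wt/- stood apart. Immunoglobulin transcripts made up 51.9% of what it held, while in each of the other 5 libraries they made up 2.37% to 3.90%, plasma-lineage cells were 49.0% of its cells, and CB-like cells were 3.20% (114 cells) against 29.0% to 33.9% elsewhere. Values are therefore given per library, and fold changes with and without that library. By *Xist* and Y-linked transcripts, *Smc3* wt/wt replicates 1 and 2 and *Smc3* wt/- replicate 2 were male and the other 3 female. The libraries shared 276 barcode sequences out of 22661.

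Class switching and somatic hypermutation rearrange and mutate the heavy chain locus in GC B-cells, and an enhancer cluster beyond *Igha*, the last constant region gene, drives heavy chain transcription in B-cells and plasma cells. *Tmem121*, *Tedc1* and *Crip1* are the next genes beyond that enhancer cluster. Crip1 is a small LIM-domain protein that is abundant in lymphocytes and myeloid cells, Tedc1 belongs to a tubulin complex needed for stable centrioles, and Tmem121 is a membrane protein whose role is not well known. Ifi27 and Ifi27l2a are small hydrophobic proteins of the ISG12 family, and their genes are induced by type I interferon. Rapgef5 is an exchange factor that activates Rap GTPases, and Ccdc88c (Daple) binds Dishevelled and takes part in Wnt and G protein signalling.

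On mouse genome build GRCm38, *Crip1* spans chr12:113146316-113153879, *Tedc1* chr12:113156421-113166048 and *Tmem121* chr12:113185930-113189523, all on the plus strand. Only 2.54 kb separate *Crip1* from *Tedc1* and 19.9 kb separate *Tedc1* from *Tmem121*. *Igha* starts 65.3 kb and *Ighg1* 136 kb beyond *Tmem121*, both on the minus strand. *Ifi27* (chr12:103434211-103440239, plus strand) and *Ifi27l2a* (chr12:103442167-103443680, minus strand) are 1.93 kb apart and lie 9.88 Mb from *Ighg1* on the centromere side. *Ccdc88c* (chr12:100911523-101029056, minus strand) lies 12.3 Mb away on the same side and overlaps the annotated genes A630072L19Rik and Gm36756. *Rapgef5* (chr12:117516479-117759737, plus strand) lies 4.19 Mb from *Ighg1* on the other side.

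The promoters of the adjacent trio are shown because its outer genes, *Crip1* and *Tmem121*, had a higher *Smc3* wt/- mean in CB-like cells while that of *Tedc1* between them was lower. Each window runs from 250 bases before to 50 bases after the annotated start on the plus strand (RefSeq, GRCm38.p6), at chr12:113151762-113152061 for *Crip1*, chr12:113156171-113156470 for *Tedc1* and chr12:113185653-113185952 for *Tmem121*. The *Crip1* window lies inside the gene span given above, so it belongs to a start downstream of the start of that span. Capitals mark matches, on either strand, to the GC box (GGGCGG) and the CCAAT box (CCAAT).
Crip1: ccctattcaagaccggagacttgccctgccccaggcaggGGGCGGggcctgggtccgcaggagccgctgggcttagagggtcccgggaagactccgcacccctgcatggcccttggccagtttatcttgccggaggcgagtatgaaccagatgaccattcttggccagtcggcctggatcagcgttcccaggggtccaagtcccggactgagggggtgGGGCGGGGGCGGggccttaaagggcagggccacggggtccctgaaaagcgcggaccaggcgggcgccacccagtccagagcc
Tedc1: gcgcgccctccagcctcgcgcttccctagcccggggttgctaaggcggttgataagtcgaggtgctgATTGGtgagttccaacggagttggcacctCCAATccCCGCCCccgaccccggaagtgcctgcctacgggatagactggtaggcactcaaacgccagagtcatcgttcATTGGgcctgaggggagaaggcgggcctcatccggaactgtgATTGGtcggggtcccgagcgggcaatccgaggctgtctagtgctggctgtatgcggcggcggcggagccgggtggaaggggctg
Tmem121: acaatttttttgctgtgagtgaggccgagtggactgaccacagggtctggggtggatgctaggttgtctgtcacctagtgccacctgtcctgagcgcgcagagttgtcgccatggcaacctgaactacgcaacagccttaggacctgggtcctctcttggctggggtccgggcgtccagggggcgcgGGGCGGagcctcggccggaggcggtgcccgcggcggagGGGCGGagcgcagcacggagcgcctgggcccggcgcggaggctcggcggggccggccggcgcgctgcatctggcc

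All 3 windows were rich in G and C, at 68.3% for *Crip1*, 65% for *Tedc1* and 70% for *Tmem121* against a median of 52.7% over 32851 promoter windows of the same length. The *Crip1* window held 3 GC boxes, the *Tmem121* window 2 and the *Tedc1* window 1, a motif found in 35.7% of all windows. The 4 CCAAT boxes were all in the *Tedc1* window, and 37.4% of all windows held at least 1. No TATA box (TATAAA, 13.6% of all windows), interferon response core (GAAA, any 2 bases, GAAA, 3.44%) or E box (CACGTG, 7.15%) was matched in these 3 windows, which says only that these letters are not there. Promoter entries were found for 4 of the 7 genes, *Rapgef5* being the fourth.

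In CB-like cells, the dividing dark zone cells of the GC, *Tmem121*, *Ifi27*, *Ifi27l2a* and *Crip1* were higher in every *Smc3* wt/- library than in any *Smc3* wt/wt library, and *Tedc1* was lower in every one, on the scale used for most levels here. Those levels are UMIs summed over the cells of a class in a library and scaled to CPM with trimmed mean of M values (TMM) factors, fold changes are log2 values of *Smc3* wt/- over *Smc3* wt/wt from edgeR with their standard error (SE), and libraries are given in the order of replicates 1, 2 and 3. With 5 of the 7 genes not overlapping between genotypes, the background was 9.8% of the 9897 genes tested (4.82% with *Smc3* wt/- above and 4.98% below). Since these genes were chosen on the same contrast, nothing is read from that count. It also depends on the scaling through *Smc3* wt/- replicate 2: as CPM of non-immunoglobulin UMIs without TMM factors, *Crip1* (2028 CPM there against up to 2172 CPM in *Smc3* wt/wt) and *Ifi27* (42.0 against up to 43.0 CPM) overlapped, and *Tmem121*, *Ifi27l2a* and *Tedc1* did not. Likewise, with the UMIs of the cell richest in the gene taken out of each library (a step chosen after seeing the data), *Smc3* wt/- replicate 2 fell within the *Smc3* wt/wt range for *Crip1* (2051 CPM) and *Ifi27* (39.8 CPM).

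*Tmem121* was at 15.5, 17 and 15.1 CPM in *Smc3* wt/wt and at 43.0, 21.7 and 39.1 CPM in *Smc3* wt/-. The 3 *Smc3* wt/wt libraries were nearly equal (15.9 ± 1.04 CPM, SD, n = 3), while *Smc3* wt/- (34.6 ± 11.4 CPM, SD, n = 3) had replicate 2 well below the other two, on 12 UMIs. The log2 fold change was 1.24 (SE 0.20), and 1.36 (SE 0.13) without *Smc3* wt/- replicate 2. Of its 2 neighbours in the trio, *Tedc1* was on the lower and *Crip1* on the higher side in *Smc3* wt/-. *Tedc1* was at 41.1, 31.3 and 32.3 CPM in *Smc3* wt/wt and at 21.9, 19.9 and 17.8 CPM in *Smc3* wt/-. The *Smc3* wt/- libraries lay close together (19.9 ± 2.06 CPM against 34.9 ± 5.44 CPM, SD, n = 3 each) and all below the lowest *Smc3* wt/wt library, with a log2 fold change of -0.79 (SE 0.17), and -0.78 without replicate 2. *Tedc2*, on another chromosome, encodes its partner in that complex, and its libraries overlapped (6.75, 5.51 and 7.07 CPM against 6.83, 5.42 and 6.54 CPM). *Crip1*, the most abundant of the genes, was at 1730.3, 2168 and 1955 CPM in *Smc3* wt/wt and at 2993, 2181 and 3010.1 CPM in *Smc3* wt/-. Here *Smc3* wt/- replicate 2 was only just above *Smc3* wt/wt replicate 2, and the log2 fold change was 0.48 (SE 0.21), or 0.62 (SE 0.18) without it.

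The interferon-inducible pair stood higher together. *Ifi27* was at 31.7, 35.4 and 43.2 CPM in *Smc3* wt/wt and at 107, 45.2 and 80.6 CPM in *Smc3* wt/-. *Smc3* wt/- replicate 2 was only just above the highest *Smc3* wt/wt library, and just below it as CPM of non-immunoglobulin UMIs. The means were 36.8 ± 5.88 and 77.5 ± 31 CPM (SD, n = 3 each), with a log2 fold change of 1.13 (SE 0.26), or 1.31 (SE 0.17) without that library. *Ifi27l2a* was at 151, 230.4 and 229 CPM in *Smc3* wt/wt and at 365, 339.7 and 403 CPM in *Smc3* wt/-. All 3 *Smc3* wt/- libraries, replicate 2 among them, were well above the *Smc3* wt/wt libraries. The means were 203 ± 45.3 and 369 ± 31.7 CPM (SD, n = 3 each) and the log2 fold change 0.86 (SE 0.18), or 0.90 without replicate 2.

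The outermost genes were low, and replicate 2 of *Smc3* wt/- split from the other *Smc3* wt/- libraries in both. *Rapgef5* was at 12.1, 16.6 and 14.0 CPM in *Smc3* wt/wt and at 6.23, 14.5 and 9.75 CPM in *Smc3* wt/-, so the groups overlapped through replicate 2 alone (8 UMIs), while within same-numbered libraries *Smc3* wt/- was the lower in 3 of 3 pairs. Its log2 fold change was -0.75 (SE 0.26), or -0.83 without that library. *Ccdc88c* was at 15.5, 19.1 and 20.5 CPM in *Smc3* wt/wt and at 12.5, 34.3 and 15.9 CPM in *Smc3* wt/-. Replicate 2 was the highest of all 6 libraries and replicate 1 the lowest. The means were 18.4 ± 2.56 and 20.9 ± 11.8 CPM (SD, n = 3 each), higher in *Smc3* wt/-, while the fitted log2 fold change had the other sign at -0.18 (SE 0.29), or -0.41 (SE 0.17) without replicate 2. Without that library 6 of the 7 genes did not overlap, beside 19.8% of the 10311 genes then tested, *Ccdc88c* overlapping on this scale but not as CPM of non-immunoglobulin UMIs.

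**Figure D1:**
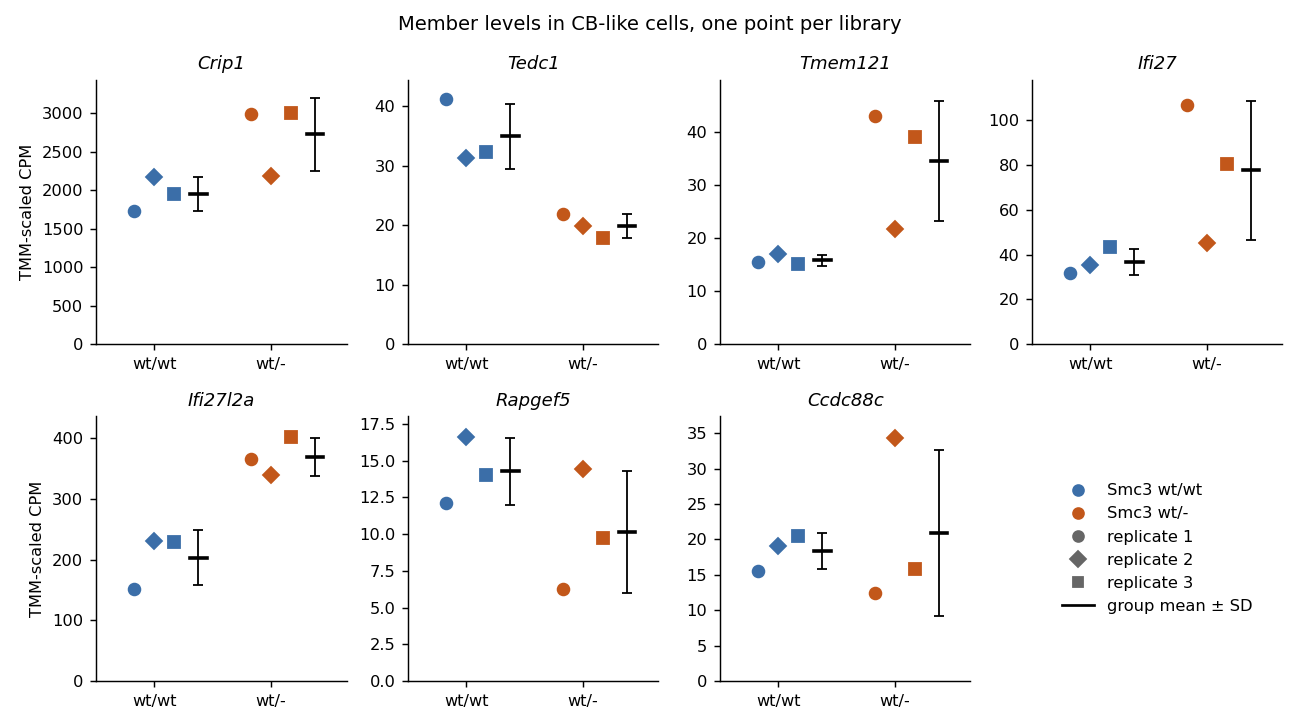
Levels of the 7 genes in CB-like cells, in TMM-scaled CPM on linear axes that start at 0, with 1 point per library, the shape giving the replicate and the bar the group mean with its SD (n = 3). The *Smc3* wt/- points lie above all *Smc3* wt/wt points for *Crip1*, *Tmem121*, *Ifi27* and *Ifi27l2a* and below them for *Tedc1* on this scale, by little for *Crip1* and *Ifi27*, while *Smc3* wt/- replicate 2 lies apart from replicates 1 and 3 for most of the genes.

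In the CB-like cells of that library, markers of some other classes were higher and others not. As CPM of all UMIs, the class's own 12 centroblast markers were lowest there (3473 CPM against 4265 to 4537 CPM in the other 5 libraries), and the 13 centrocyte markers were highest (1165 against 487 to 635 CPM). The summed level of the 14 naive or memory B markers was 1424 CPM there against 424 to 505 CPM elsewhere, that of the 14 myeloid markers 856 against 202 to 259 CPM, and *Igha* was at 4884 CPM against 33.0 to 137 CPM. The T cell markers were the lowest of the 6 libraries there (43.9 CPM), as were the S-phase markers (1123 CPM), while the plasma cell markers (3307 CPM) and erythroid markers (355 CPM) lay within the range of the other libraries. The part of any of these in the levels above was not tested. By sex, the *Smc3* wt/- to *Smc3* wt/wt ratio in the female libraries (2 *Smc3* wt/- and 1 *Smc3* wt/wt) was 2.73 for *Tmem121*, 1.54 for *Crip1*, 0.615 for *Tedc1*, 2.17 for *Ifi27* and 1.68 for *Ifi27l2a*. In the male libraries, where *Smc3* wt/- is replicate 2 alone, it was 1.33, 1.12, 0.549, 1.35 and 1.78 for the same genes, so sex and that library cannot be told apart. For *Rapgef5* the ratio was 0.569 in females and 1.0 in males, and for *Ccdc88c* 0.692 and 1.98.

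The share of CB-like cells with a UMI, after each cell was thinned to 2000 UMIs, had the order of the levels for some of the genes. For *Tmem121* it was 3.97%, 3.58% and 2.24% of cells in *Smc3* wt/wt and 9.52%, 4.76% and 7.47% in *Smc3* wt/- (unthinned 7.46%, 9.95% and 10.9% against 21.1%, 10.5% and 21.9%). For *Ifi27* it was 7.14%, 6.24% and 6.95% against 20.6%, 7.62% and 14.4%, with unthinned shares of 12.2%, 17.4% and 22.5% against 37.6%, 17.5% and 35.8%. Only the *Smc3* wt/- replicate 2 share was near the *Smc3* wt/wt shares for both genes. For *Crip1* the thinned share was 91.7%, 95.7% and 92.9% against 98.3%, 84.8% and 98.2%, so *Smc3* wt/- replicate 2 was the lowest of the 6 although its level was not. For *Tedc1* it was 7.54%, 4.91% and 6.12% against 5.41%, 2.86% and 3.20%, which overlap although the levels do not, with *Smc3* wt/- the lower in every same-numbered pair. No single cell held more than 8.70% of the *Tmem121* UMIs of a library.

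Across the remaining GC classes and the haemoglobin-led cluster, *Smc3* wt/- replicates 1 and 3 kept the order seen in CB-like cells. Counting CB-like, S-phase GC B-like, CC-like and recycling-like cells and the haemoglobin-led cluster, both libraries were above all *Smc3* wt/wt libraries in 5 of 5 for *Tmem121*, *Crip1*, *Ifi27* and *Ifi27l2a*, and below in 5 of 5 for *Tedc1*, 3 of 5 for *Rapgef5* and 4 of 5 for *Ccdc88c*. The background of genes not overlapping without replicate 2 was 19.8% in CB-like, 16.6% in S-phase GC B-like, 17.3% in CC-like and 17.4% in recycling-like cells and 18.4% in the haemoglobin-led cluster. The classes come from the same libraries and the same cell preparations, so they do not repeat the comparison. Without replicate 2 the ratio of the means ran from 2.08 to 3.62 for *Tmem121*, from 2.23 to 2.90 for *Ifi27*, from 1.73 to 1.98 for *Ifi27l2a* and from 1.52 to 1.59 for *Crip1*. It ran from 0.177 (the haemoglobin-led cluster, with 0 and 8 UMIs in these libraries) to 0.639 for *Tedc1*, from 0.560 to 0.880 for *Rapgef5* and from 0.673 to 0.771 for *Ccdc88c*.

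Replicate 2 of *Smc3* wt/- went with the other two for some of the genes and against them for others. It was above all *Smc3* wt/wt libraries in 5 of 5 classes for *Ifi27* and in 4 of 5 for *Ifi27l2a*, and below them in 5 of 5 for *Tedc1*. As CPM of non-immunoglobulin UMIs these counts were 4, 3 and 5. The *Tedc1* count rests on few UMIs in that library, with 2 in CC-like cells, 4 in recycling-like cells and 0 in the haemoglobin-led cluster. For *Crip1* it was below all *Smc3* wt/wt libraries in 4 of 5 classes, CB-like cells being the exception, and for *Ccdc88c* it was above them in 5 of 5, or in 4 as CPM of non-immunoglobulin UMIs. For *Tmem121* it was above in 2, below in 2 and within their range in 1, and for *Rapgef5* it was below in 2 and within their range in 3. In S-phase GC B-like cells, for example, *Crip1* was at 1849.7, 2350.3 and 2136 CPM in *Smc3* wt/wt and at 3276, 1656 and 3167 CPM in *Smc3* wt/-. *Tmem121* in these cells was at 38.2, 30.6 and 27.9 CPM against 68.9, 35.9 and 65.2 CPM, and *Ifi27* at 21.3, 34.9 and 37.9 CPM against 110.0, 64.2 and 72.0 CPM. Thus *Smc3* wt/- replicate 2 was the lowest of 6 for *Crip1*, within the *Smc3* wt/wt range for *Tmem121* and above it for *Ifi27*, beside 8.23% of genes not overlapping with all libraries. Within same-numbered libraries, *Tmem121* and *Ifi27* were higher in *Smc3* wt/- in every pair, and *Crip1* was not.

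In naive or memory B-like cells, *Tmem121* was low but separated the groups. It was at 2.86, 3.51 and 2.10 CPM in *Smc3* wt/wt (1, 4 and 2 UMIs) and at 20.4, 13.2 and 14.3 CPM in *Smc3* wt/- (15, 20 and 16 UMIs), so replicate 2 went here with the other *Smc3* wt/- libraries. The log2 fold change was 2.40 (SE 0.45), or 2.51 without replicate 2, resting on these few UMIs, beside a background of 6.81% of 7050 genes whose libraries did not overlap (16.1% without replicate 2). *Ifi27l2a* (297, 536 and 616 CPM against 844, 448 and 797 CPM), *Ifi27* (74.3, 66.6 and 82.9 CPM against 69.5, 88.0 and 89.7 CPM) and *Crip1* (1455, 1903 and 1633 CPM against 2516, 2179 and 1737 CPM) all overlapped there, *Ifi27l2a* through replicate 2 alone (log2 fold change 0.51, and 0.75 without it). Within same-numbered libraries *Crip1* was higher in *Smc3* wt/- in 3 of 3 pairs. *Smc3* wt/- replicate 2 gave 585 of the cells of this class, more than any other library.

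In plasma-lineage cells *Tmem121* was nearly absent, with 12 UMIs over all 6 libraries. *Rapgef5* was lower in every *Smc3* wt/- library than in any *Smc3* wt/wt library, beside the background given below. It had 2, 11 and 9 UMIs in *Smc3* wt/wt and 0, 34 and 4 in *Smc3* wt/-. With the richest cell's UMIs taken out of each library it overlapped (2.12, 6.87 and 4.30 CPM against 0, 3.89 and 2.09 CPM). *Ifi27l2a* was at 38.2, 63.4 and 123 CPM in *Smc3* wt/wt and at 144, 140.2 and 312 CPM in *Smc3* wt/-, and *Ifi27* at 0, 10.7 and 11.3 CPM against 25.6, 21.7 and 17.4 CPM. Both were above every *Smc3* wt/wt library in all 3 *Smc3* wt/- libraries, beside a background of 9% of 5921 genes not overlapping in either direction (17.1% without replicate 2). The log2 fold change was 1.36 for *Ifi27l2a* and 1.30 for *Ifi27*, or 1.51 and 1.19 without replicate 2. *Crip1* overlapped (830.4, 927 and 510.1 CPM against 844, 1775 and 1398 CPM). As CPM of non-immunoglobulin UMIs it was the other way round for 2 of the 3: *Ifi27l2a* overlapped (64.1, 102 and 199 CPM against 262, 142 and 506 CPM), *Crip1* did not (1392, 1493 and 823 CPM against 1539, 1793 and 2265 CPM), and *Ifi27* still did not. A single cell held 56.0% of the 1214 *Crip1* UMIs of *Smc3* wt/wt replicate 2, and with the richest cell's UMIs taken out of each library *Crip1* did not overlap (567, 408 and 463 CPM against 698, 1719 and 1160 CPM). *Smc3* wt/- replicate 2 gave 1743 of these cells and the other libraries 34 to 84 each. The class joined 2 clusters, and 1408 of the cells of *Smc3* wt/- replicate 2 were in the larger, while each other library had most of its cells in the smaller (for example 55 of 78 in *Smc3* wt/wt replicate 3 and 69 of 84 in *Smc3* wt/- replicate 3).

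T cell-like cells, in which *Cγ1*-Cre is not expected to be active, numbered 56 to 141 per library. The pair that was higher in *Smc3* wt/- GC B-like cells overlapped there. *Ifi27* was at 286, 182 and 235 CPM in *Smc3* wt/wt and at 219.8, 175 and 205 CPM in *Smc3* wt/-, so all *Smc3* wt/- libraries were below the highest *Smc3* wt/wt library and the groups overlapped (235 ± 51.7 and 199.97 ± 22.9 CPM, SD, n = 3 each, and the log2 fold change was -0.24, or -0.15 without replicate 2). As CPM of non-immunoglobulin UMIs, *Smc3* wt/- replicate 1 (244 CPM) was above the *Smc3* wt/wt mean (237 CPM). *Ifi27l2a* was at 729, 1387 and 1472 CPM against 1442, 1168 and 1242 CPM, with *Smc3* wt/wt replicate 1 the lowest of the 6 (log2 fold change 0.10, or 0.15 without replicate 2). A single cell held 40.4% of the *Ifi27l2a* UMIs of *Smc3* wt/wt replicate 2, and with the richest cell taken out of each library the levels were 600, 827 and 1335 CPM against 1319, 1038 and 1166 CPM, which still overlap. *Crip1* was at 1529.6, 1387 and 2018 CPM in *Smc3* wt/wt and at 653, 1607 and 1195 CPM in *Smc3* wt/-. Its *Smc3* wt/- mean was lower (1152 ± 478 against 1645 ± 331 CPM, SD, n = 3 each), the opposite side to CB-like cells, and the groups overlapped with replicate 2 and did not without it (log2 fold change -0.51, and -0.84 without). Of the 266 *Crip1* UMIs of *Smc3* wt/wt replicate 3, 40.6% were in 1 cell. With the richest cell taken out of each library the levels were 1358, 1216 and 1199 CPM against 569, 1452 and 973 CPM, so that *Smc3* wt/- replicate 2 was the highest of the 6 and the other 2 were still below all *Smc3* wt/wt libraries. The background of genes not overlapping was 7.48% of 2339 genes with all libraries and 16.4% of 2511 without replicate 2. The 12 centroblast markers in these T cell-like cells were at 1149, 861 and 1036 CPM of all UMIs in *Smc3* wt/wt and at 652, 1304 and 340 CPM in *Smc3* wt/-, so that *Smc3* wt/- replicates 1 and 3 were lowest for both these markers and *Crip1*. Plasma cell markers were at 5841 CPM in *Smc3* wt/- replicate 2 and at 312 to 1162 CPM in the other libraries. Their part in the *Crip1* levels was not tested, nor was the difference between CB-like and T cell-like cells.

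*Tmem121*, *Tedc1* and *Rapgef5* could not be compared in T cell-like cells, with 4, 6 and 2 UMIs over all libraries, and *Ccdc88c*, with 57 UMIs, was at 35.7, 18.2 and 83.5 CPM against 25.9, 41.9 and 99.6 CPM, which overlap. Of the 7 genes, 3 passed the filter on low counts in this class and 7 in CB-like cells. The summed level of the 12 T cell markers was 8226 to 12297 CPM in T cell-like cells against 43.9 to 99.96 CPM in CB-like cells.

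**Figure D2:**
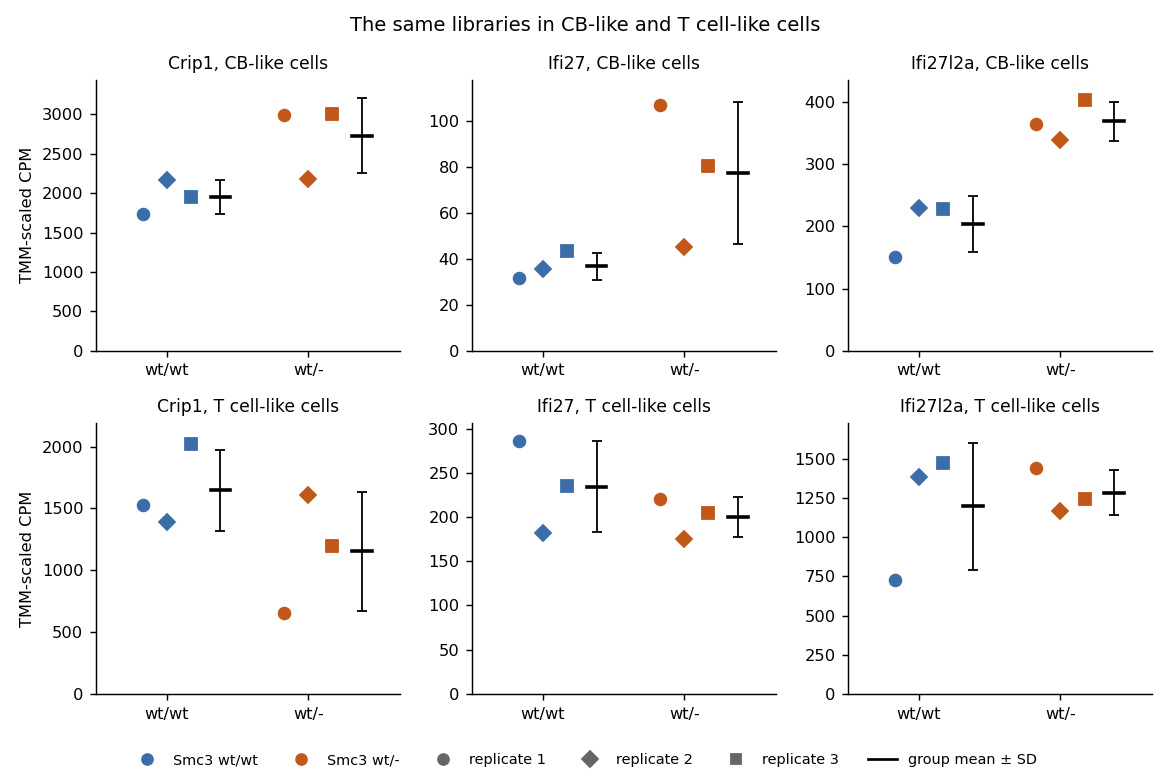
*Crip1*, *Ifi27* and *Ifi27l2a*, the genes that passed the filter on low counts in both classes, in CB-like cells (upper row) and T cell-like cells (lower row) of the same 6 libraries, in TMM-scaled CPM on linear axes from 0, with group means ± SD (n = 3). On this scale the groups separate in the upper row, narrowly for *Crip1* and *Ifi27*, while in the lower row they overlap for each of the 3 genes.

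Beyond genotype, each gene had its own distribution over cell classes, given here as CPM of non-immunoglobulin UMIs as mean ± SD over the 6 libraries, since immunoglobulin transcripts fill much of a plasma cell library. *Tmem121* was highest in S-phase GC B-like cells (45.8 ± 20.1 CPM) and the haemoglobin-led cluster (43.0 CPM), followed by CB-like (25.9 CPM), recycling-like (19.2 CPM), CC-like (18.7 CPM) and naive or memory B-like cells (9.80 CPM), with T cell-like (3.20 CPM) and plasma-lineage cells (2.07 CPM) last. No neighbours in that order differed by more than their spread. *Tedc1* was highest in CB-like (28.2 CPM), S-phase GC B-like (21.4 CPM) and recycling-like cells (18.9 CPM), and was at 9.41 CPM in CC-like cells. *Rapgef5* was highest in the haemoglobin-led cluster (13.6 CPM), CB-like (12.3 CPM) and S-phase GC B-like cells (11.7 CPM) and lowest in T cell-like cells (1.39 CPM).

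The interferon-inducible pair was instead highest outside the GC classes. *Ifi27* was highest in T cell-like cells (222 ± 53.0 CPM), was at 80.5 CPM in naive or memory B-like cells and between 58.1 and 62.4 CPM in CC-like, CB-like and S-phase GC B-like cells, and was lowest in plasma-lineage (22.0 CPM) and recycling-like cells (20.8 CPM). Small clusters left without a name, with 6 to 35 cells per library, were at 186 CPM, and T cell-like cells were above them in 3 of 6 libraries. *Ifi27l2a* was also highest in T cell-like cells (1249 ± 266 CPM), above myeloid-like cells (812 CPM) by more than the spread, then naive or memory B-like (609 CPM) and CB-like cells (291 CPM), down to recycling-like cells (44.2 CPM), which were below CC-like cells (179.6 CPM) in 6 of 6 libraries. *Ccdc88c* was also led by T cell-like cells (50.4 CPM) and naive or memory B-like cells (37.7 CPM), against 19.7 CPM in CB-like cells. *Crip1* was high everywhere: 3957 CPM in the haemoglobin-led cluster, 3106 CPM in myeloid-like, 2470.2 CPM in S-phase GC B-like, 2392 CPM in CB-like and 1401 CPM in T cell-like cells, with recycling-like cells (652 CPM) below T cell-like cells by more than the spread. Its mean in the small clusters without a name was 4205 CPM, with libraries from 786 to 7505 CPM. The myeloid-like class came almost all from *Smc3* wt/- replicate 2 (606 cells against 6 to 17), so its genotypes were not compared.

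**Figure D3:**
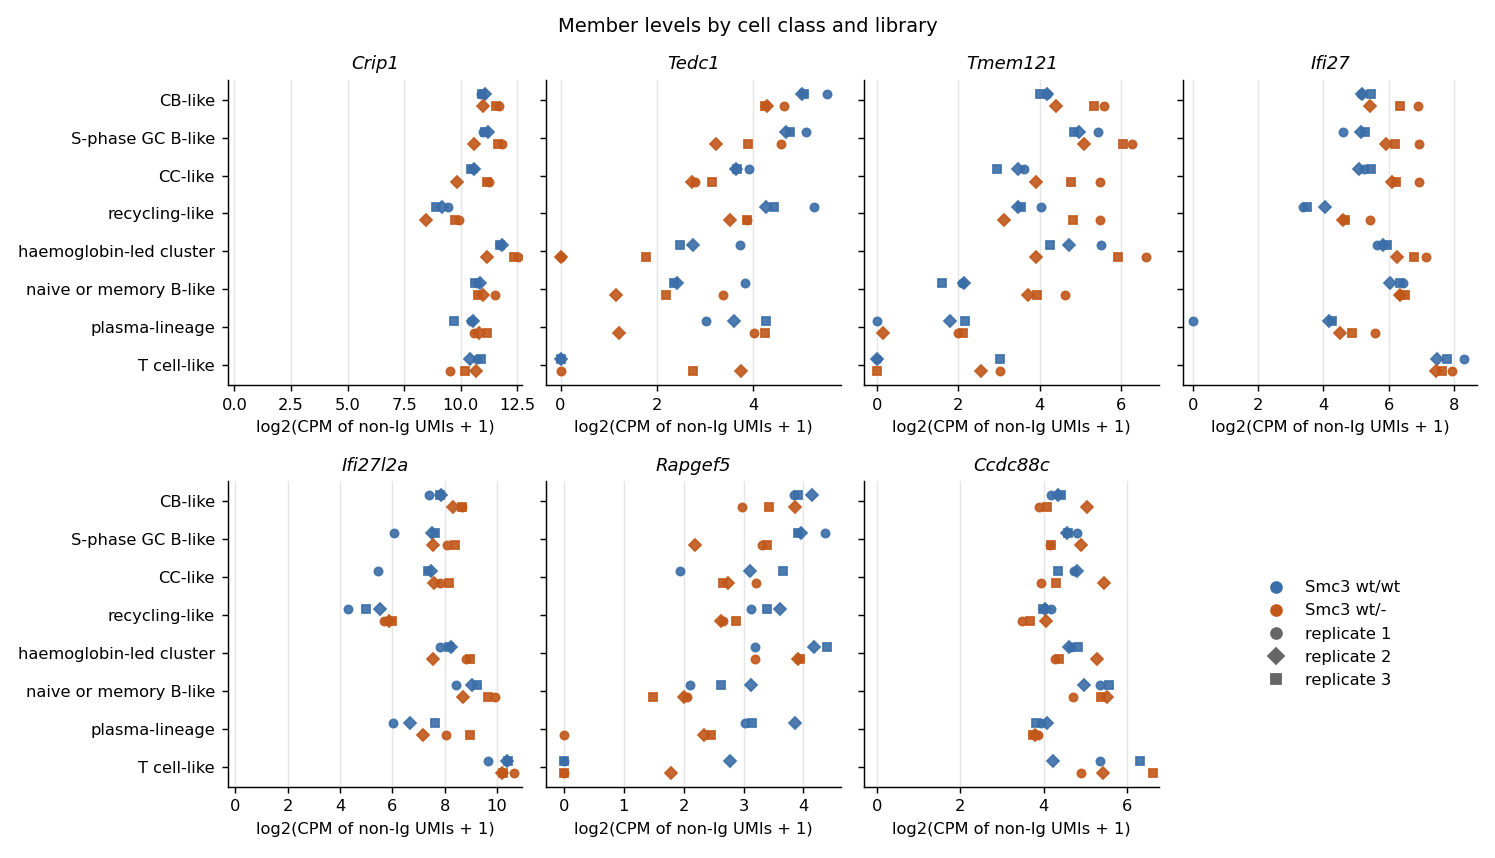
Level of each gene in each cell class, as log2 of CPM of non-immunoglobulin UMIs plus 1 (x axis), with 1 point per library coloured by genotype and shaped by replicate. In the GC classes the *Smc3* wt/- points lie to the right for *Tmem121* and *Ifi27* and to the left for *Tedc1* in replicates 1 and 3, and of the rows shown the T cell-like row is the rightmost for *Ifi27* and *Ifi27l2a*. Myeloid-like cells and small clusters left without a name are not shown.

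The wider chromosome stretch was compared next. In edgeR's quasi-likelihood test with Benjamini-Hochberg adjustment over all 9897 genes of CB-like cells, 0 genes passed an adjusted p of 0.05, 246 had an unadjusted p below that value, and by DESeq2 these counts were 0 and 146. Of the genes from 95 Mb to the chromosome's end, with immunoglobulin segments and the genes above left out, 88 were tested. edgeR called 0 of them (6 unadjusted, and 2 by DESeq2), 37 were higher and 51 lower in *Smc3* wt/-, and the median log2 fold change was -0.02. The median size of the log2 fold change was 0.15 over the 26 genes within 2 Mb of *Ighg1*, 0.17 over the 36 genes from 2 to 10 Mb, 0.20 over the 26 genes from 10 to 20 Mb, 0.13 over the 255 genes farther away on the chromosome and 0.13 over all genes. Of the 88, 4.55% had all *Smc3* wt/- libraries above and 10.2% below, beside 4.82% and 4.98% of all genes. Without *Smc3* wt/- replicate 2, 92 were tested and edgeR again called 0 (7 unadjusted).

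Of the genes right beside the 7, *Crip2*, the LIM-domain relative upstream of *Crip1*, was at 6.07, 4.26 and 4.46 CPM in *Smc3* wt/wt and at 8.44, 1.81 and 7.07 CPM in *Smc3* wt/-, with 1 UMI in replicate 2 (log2 fold change 0.63, adjusted p = 1.0 by edgeR). Without that library its genotypes did not overlap (log2 fold change 0.75, unadjusted p = 0.0115 and adjusted p = 1.0 by edgeR). *Ddx24*, an RNA helicase gene next to *Ifi27*, and *Cdca7l*, a cell cycle gene next to *Rapgef5*, had log2 fold changes of -0.08 and 0.15, or 0.05 and 0.12 without replicate 2, with overlapping libraries in each. *Ppp4r4*, *Ptprn2* and A630072L19Rik, also adjacent, had at most 2 UMIs each in CB-like cells. The smallest unadjusted p-values in the stretch by edgeR belonged to *Gm28875* (log2 fold change 0.54), *Ubr7* (-0.42), *Zfp386* (-0.39), *Trip11* (-0.64) and *Pld4* (0.87), at 0.0104, 0.0165, 0.0306, 0.0367 and 0.0407, each with an adjusted p of 1.0. Without replicate 2 the first 4 of these were at 0.54, -0.36, -0.36 and -0.66. *Pld4* was at 179 CPM in *Smc3* wt/- replicate 2 and its log2 fold change was 0.40 without it. *Serpina3g*, named after its value was seen, had the largest fold change of the stretch, 2.14 on the log2 scale (SE 1.23), and -0.01 without replicate 2.

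**Figure D4:**
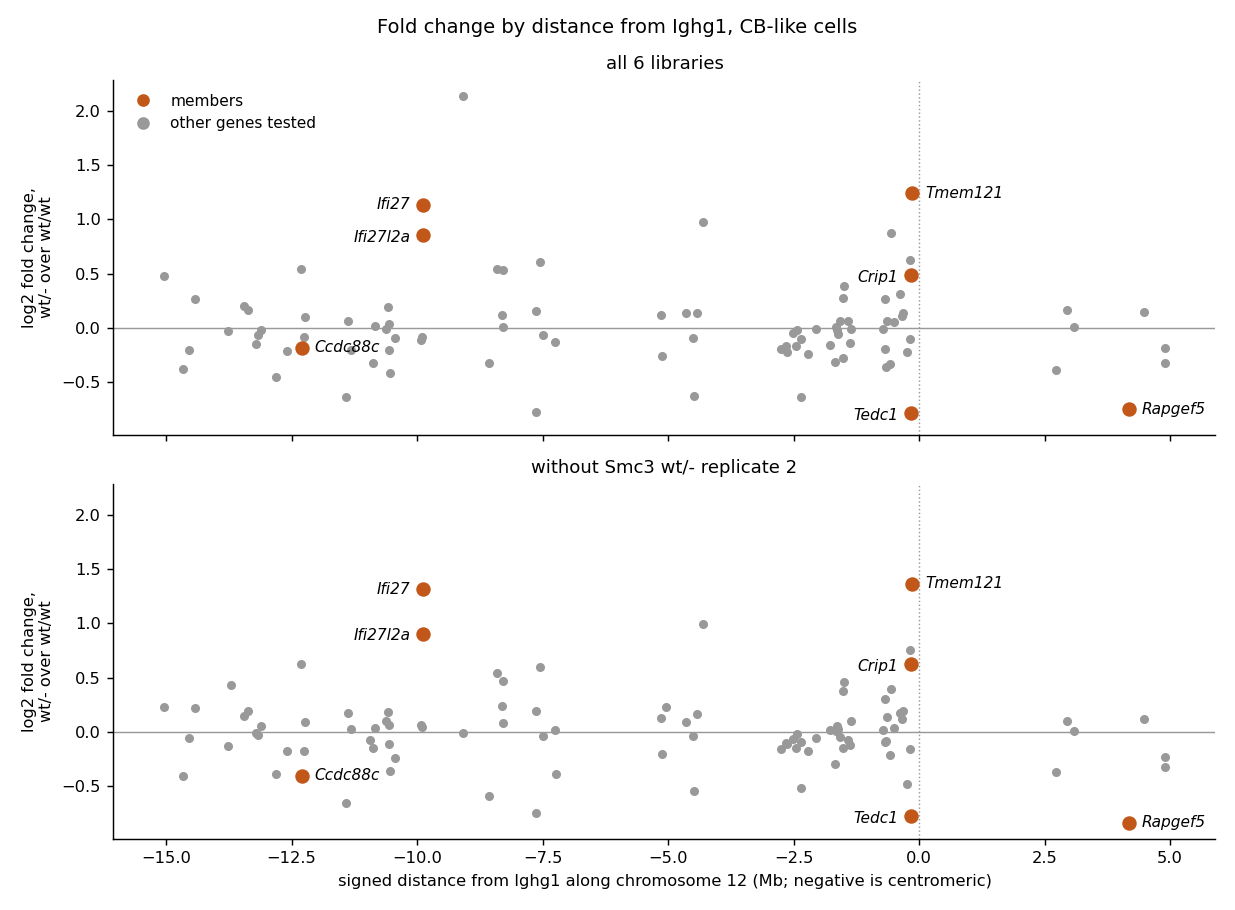
Log2 fold change of each tested gene of the stretch in CB-like cells (y axis) against its distance from *Ighg1* in Mb (x axis, negative towards the centromere), with all 6 libraries (upper panel) and without *Smc3* wt/- replicate 2 (lower panel). The 7 genes described here are labelled, *Crip1* and *Tmem121* lie above and *Tedc1* below the zero line at nearly the same distance, and the median size of the other genes' values is 0.15 within 2 Mb.

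*Ighg1*, which carries the Cre insertion, was at 304, 560.4 and 354 CPM in CB-like cells of *Smc3* wt/wt and at 239.7, 107 and 402 CPM in those of *Smc3* wt/-, so the groups overlapped (log2 fold change -0.66, and -0.34 without replicate 2). In CC-like cells they did not, at 263, 314 and 349 CPM against 102, 32.2 and 253 CPM (log2 fold change -1.14, or -0.78 without replicate 2, adjusted p = 1.0 by edgeR, beside 8.26% of genes not overlapping). A fit chosen after seeing the data, without replicate 2 and with replicate number as a block, leaves 1 residual degree of freedom. It gave -0.77 (SE 0.15, adjusted p = 0.00453 by edgeR) for *Ighg1* in CC-like cells, and nothing is read from that p. The same fit gave -0.05 (adjusted p = 0.989) in CB-like and -0.38 (adjusted p = 0.102) in S-phase GC B-like cells. By the levels above, *Ighg1* in CC-like cells was on the other side from *Tmem121*, which was at 10.2, 9.95 and 6.6 CPM against 39.0, 16.1 and 25.6 CPM.

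Since *Ifi27* and *Ifi27l2a* are interferon-inducible, 44 other interferon-inducible genes were examined as a group in CB-like cells. Of the 33 tested, edgeR called 0 (1 had an unadjusted p below 0.05, or 4 with DESeq2), 27 were higher and 6 lower in *Smc3* wt/-, and the median log2 fold change was 0.40 against -0.01 over all genes. Much of that came with replicate 2, for without it 26 of 36 were higher and the median was 0.19. The summed level of the list was 1109, 1352 and 1338 CPM of non-immunoglobulin UMIs in *Smc3* wt/wt against 1405, 2152 and 1130 CPM in *Smc3* wt/-. *Ly6e* alone gave 671 of 1495, 6714 of 12983 and 7983 of 14448 UMIs in *Smc3* wt/wt and 2177 of 6379, 718 of 1281 and 5001 of 10514 UMIs in *Smc3* wt/-. The largest differences were those of *Ifi203* (log2 fold change 2.26, and 0.24 without replicate 2), *Cmpk2* (1.0504, and 1.10 without), *Trim30d* (0.90, and 0.09 without), *Oas1a* (0.84, and 0.97 without) and *Irf9* (0.83, and 0.65 without), and none passed edgeR's adjusted threshold. *Cmpk2* was at 2.02, 3.33 and 1.58 CPM in *Smc3* wt/wt against 8.64, 1.81 and 2.57 CPM in *Smc3* wt/-, so only replicate 1 stood higher. The *Oas1a* means were 1.68 and 1.79 CPM, with 0 UMIs in *Smc3* wt/- replicate 2.

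The genes whose pattern was most like each of the 7, over 49 sums of a class in a library (Pearson's r of log2(CPM + 1), a description in which sums share libraries and cell preparations), differed from gene to gene. For *Tedc1* they were *Brip1* (0.94), *Rad54l* (0.84) and *Ndc1* (0.84), the first 2 known from DNA repair. For *Tmem121* they were *Grhpr* (0.83), *Sypl* (0.83) and *Arpc5l* (0.83), and for *Crip1* *Sh3glb1* (0.80), *Snapc5* (0.75) and *Ypel5* (0.75). For *Ifi27* they were 1110034G24Rik (0.87), *Epsti1* (0.85), an interferon-inducible gene, and *Sigirr* (0.85), and for *Ifi27l2a* AI467606 (0.87), *Pnrc1* (0.86) and *Arhgap15* (0.86). For *Rapgef5* they were *Lipc* (0.80), C430042M11Rik (0.79) and *Depdc5* (0.77), and for *Ccdc88c* the lymphocyte GTPase genes *Gimap8* (0.81) and *Gimap3* (0.81) with *Ripor2* (0.80). None of the 7 was among the 3 most alike of another, though *Rapgef5*, with a mean of 7.82 CPM, was under the limit for being listed. With log2(CPM + 10) in place of log2(CPM + 1), 9 of these 21 genes were no longer among the 3 most alike, *Grhpr*, *Sypl*, *Ypel5*, *Rad54l*, *Ndc1*, *Epsti1* and *Sigirr* among them.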

How the data were processed

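Cells sorted as GC B-cells from *Smc3* wt/wt and *Smc3* wt/- mice were profiled by droplet-based 3′ RNA-seq, with 3 libraries per genotype. The deposited files hold raw UMI counts per gene and barcode, which the authors made with Cell Ranger on mm10. The submitters' processing notes also name R 4.0.2 and Seurat 4.0.0. Positions are those of GENCODE for GRCm38, and promoters those of RefSeq. The 7 genes and the gene lists were chosen with earlier results of these data known. Genes to be named beside them were the detected genes next to each on the chromosome, the 5 neighbours with the smallest p, the 5 interferon genes with the largest fold change and the 3 genes most alike in pattern. Genes with a mean under 10 CPM were left out of the last. Some items are not reported here.

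Barcodes with at least 500 genes and at most 10% mitochondrial UMIs were kept (21568 of 22939), 759 doublets found with Scrublet in scanpy 1.11.5 were removed, and 20809 cells were clustered in Seurat 5.3.0 (1852 of 2000 variable genes, 30 components, resolution 0.5). Raw counts were summed per class and library and tested with edgeR 4.0.16 (quasi-likelihood, TMM, filter on low counts, genotype the only term) under R 4.3.3, with an adjusted p threshold of 0.05. Classes with under 20 cells in a library were not tested. DESeq2 1.42.0, a replicate block, a sex term, other filters, clusterings and scalings and each library left out were alternatives. The fit was run on simulated counts with the same profile and spread in every library apart from known changes. That check does not cover a library of other composition, such as *Smc3* wt/- replicate 2. Replicate numbers are in the labels. Same-numbered libraries deviated together in naive or memory B-like (correlations of 0.306, 0.229 and 0.132), CB-like (0.26, 0.13 and 0.148) and S-phase GC B-like cells (0.276, 0.128 and 0.19), but not in every pair of the other classes. Median depth was 3329 to 6265 UMIs per kept cell. p-values measure only the spread between these libraries, which may in part be technical, and values from few UMIs are imprecise.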

Additional observations from a re-analysis of the deposited data

Results flagged for a closer look

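For *Crip1* and *Ifi27*, the *Smc3* wt/- libraries lay on opposite sides of the *Smc3* wt/wt mean in CB-like and T cell-like cells of the same libraries. For *Crip1* all 3 *Smc3* wt/- libraries were above that mean in CB-like cells (log2 fold change 0.48) and below it in T cell-like cells (log2 fold change -0.51, or -0.84 without *Smc3* wt/- replicate 2). For *Ifi27* all 3 were above it in CB-like cells (1.13) and below it in T cell-like cells (-0.24, or -0.15 without that library). As CPM of non-immunoglobulin UMIs this held for *Crip1* and not for *Ifi27*, whose *Smc3* wt/- replicate 1 (244 CPM) was above the *Smc3* wt/wt mean (237 CPM) in T cell-like cells. It held for neither gene once the UMIs of the cell richest in it were taken out of each library, a step chosen after seeing the data: 1 cell held 40.6% of the *Crip1* UMIs of *Smc3* wt/wt replicate 3, and without such cells *Smc3* wt/- replicate 2 (1452 CPM) was above the *Smc3* wt/wt mean (1258 CPM) for *Crip1* and replicate 1 (207 against 203 CPM) for *Ifi27*. The difference between the classes was not tested in either case, the T cell-like sums come from 56 to 141 cells per library, and with all 6 libraries the genotypes overlapped there for both genes. In T cell-like cells the summed centroblast markers were at 652 and 340 CPM in *Smc3* wt/- replicates 1 and 3, against 861 to 1149 CPM in *Smc3* wt/wt and 1304 CPM in *Smc3* wt/- replicate 2. *Crip1* was likewise lowest in those same 2 libraries, and the part of these markers in its level was not tested.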

How the results depend on the processing

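The direction of the CB-like log2 fold change was the same in 17 of 17 alternatives for *Tmem121* (1.10 to 1.41), *Crip1* (0.39 to 0.71), *Tedc1* (-0.92 to -0.66), *Ifi27* (0.86 to 1.31), *Ifi27l2a* (0.69 to 1.01) and *Rapgef5* (-0.93 to -0.48), and in 16 of 17 for *Ccdc88c* (-0.41 to 0.07, the latter without *Smc3* wt/- replicate 1). The alternatives reuse the libraries on which these genes were chosen, so a kept direction was likely in advance. It is no support for a difference. Leaving out 1 library at a time called 0 to 1 genes in S-phase GC B-like cells, 0 to 1 in plasma-lineage cells, both without *Smc3* wt/- replicate 2, 0 to 4 in the haemoglobin-led cluster (4 without *Smc3* wt/- replicate 1), and 0 in the other classes. With the replicate block edgeR called 2 genes in the haemoglobin-led cluster and 0 in each other class (381 at an unadjusted p under 0.05 in CB-like cells), and it gave *Tmem121* 1.18 and *Crip1* 0.48.

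Without a filter on low counts, edgeR called 9 genes in CC-like, 7 in T cell-like, 31 in naive or memory B-like (*Ighg1* among them) and 3 in plasma-lineage cells and 25 in the haemoglobin-led cluster, with 1 neighbour, *Serpina3g*, in naive or memory B-like cells and 1 gene of the interferon list, *Rsad2*, in the haemoglobin-led cluster. DESeq2 called 1 gene in S-phase GC B-like cells, and clustering without integration 1 in CB-like cells. A fit chosen after seeing the data left out *Smc3* wt/- replicate 2 and kept the replicate block, which leaves 1 residual degree of freedom and *Smc3* wt/wt replicate 2 without a partner. It called 24 genes over all kept cells, 19 in CB-like, 19 in CC-like, 46 in S-phase GC B-like, 31 in T cell-like, 16 in naive or memory B-like, 16 in plasma-lineage and 33 in recycling-like cells and 30 in the haemoglobin-led cluster, 0 neighbours in each, and gave *Crip1* 0.71 in CB-like cells. Some calls in these fits are of the 7 genes, which were chosen on the same contrast, and nothing is read from them. Why these counts differ was not tested. With log2(CPM + 10) the likeness of *Tmem121* and *Grhpr* was 0.755. Clustering without integration, a looser cell filter and doublets kept gave no value for some classes. Depth limits the low genes most: *Tmem121* in CB-like cells rests on 12 UMIs in *Smc3* wt/- replicate 2, and T cell-like sums on 127083 to 425617 UMIs. With the richest cell taken out of each library, the *Smc3* wt/- minus *Smc3* wt/wt mean in T cell-like cells went from -493 to -260.0 CPM for *Crip1* and from 88.2 to 253 CPM for *Ifi27l2a*.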

Other observations

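Relatives of the 7 genes elsewhere in the genome were also counted. *Ifi27l2b*, a close relative of *Ifi27l2a*, had 0 UMIs over all kept cells, though whether reads that match both copies were counted was not tested, and *Crip3* had 2 UMIs. *Crip2* had 811 UMIs, *Rapgef3* 1054, *Rapgef4* 483, *Ccdc88a* 2313, *Ccdc88b* 1417 and *Tedc2* 883, against 290754 for *Crip1*, 32725 for *Ifi27l2a*, 6751 for *Ifi27*, 3361 for *Tmem121*, 2466 for *Ccdc88c*, 2204 for *Tedc1* and 1337 for *Rapgef5*. *Crip1* thus gave nearly all of the UMIs of its family in these cells.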
